A study of Mus musculus with 36 samples.

Results

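Laminins, nidogens, perlecan, agrin, SPARC and dystroglycan are the non-collagen glycoproteins of the basement membrane and its receptor, and their transcripts were followed in mouse embryonic stem cells (mESCs) on substrates of different stiffness. The members were the 10 genes Lama1, Lama5, Lamb1, Lamc1, Nid1, Nid2, Hspg2, Sparc, Agrn and Dag1, chosen by name, out of 49671 genes in the count table. All 10 passed the filter on low counts, which kept 17702 genes. The basement membrane collagens were not included.

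Wild-type mESCs of the strain labelled 129m wt were cultured on soft StemBond hydrogels, on stiff ones or on tissue culture plastic, and RNA was sequenced from bulk lysates. StemBond is a polyacrylamide gel to which matrix protein is bound covalently. All media contained serum, and some also held LIF, a cytokine that acts through STAT3 to keep the cells self-renewing, or PD03 (PD0325901), which inhibits MEK, the kinase that activates ERK. Both hydrogels were sampled at 24 h with LIF and at 48 h with neither addition, with LIF, with PD03 or with LIF and PD03 together, and plastic was sampled at 48 h with LIF, which makes 11 groups and 36 libraries. There were 6 libraries from soft hydrogels in serum + PD03 and 3 in each of the other groups. The labels do not say whether libraries of a group came from separate cultures, so the p-values measure only the spread between these libraries, which may be technical. In bulk RNA, fewer cells of a type and less RNA per cell cannot be told apart.

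The basement membrane is a thin sheet of matrix on which epithelia rest, and it is among the first matrices made by the early embryo. Laminins are trimers of an alpha, a beta and a gamma chain that polymerise into a network at the cell surface, where integrins and dystroglycan hold it. Nidogens and the heparan sulphate proteoglycans perlecan and agrin bind to laminin and link it to the other parts of the sheet. The epiblast makes laminins with the alpha 5 chain, and embryonic stem cells attach to them through integrins, whereas the primitive endoderm and its derivatives are known for large amounts of laminin with the alpha 1 chain, nidogen and SPARC.

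Library totals ran from 10405696 to 26635239 counts, and the 10 members together took 0.319% to 0.597% of a library. No member had fewer than 1350 counts in any library. Markers of mESCs (Pou5f1, Sox2, Nanog, Esrrb and Zfp42) had a summed level of 1657 to 3017 CPM, a gene's counts scaled to a common library size. Each sample carries an SLX identifier in its label, and the labels do not say what it marks. The first of the 3 identifiers covered all 24 h and all plastic libraries and 1 of the 3 stiff libraries in serum + LIF at 48 h. The second covered the other stiff libraries at 48 h and 2 of the 6 soft libraries in serum + PD03, and the third covered the remaining soft libraries at 48 h. At 48 h the substrate therefore nearly coincided with the identifier, and each such difference was refitted with the identifier as a term.

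Promoter sequence from RefSeq (build GRCm38.p6) was found for 7 of the 10 members, and 4 are shown because their genes mark the range of the results. Nid1 had the largest rise with PD03 of all members, Lamb1 and Dag1 had the smallest, and Lama5 was the member most often lower on soft than on stiff hydrogels. Each run has 191 bases, from 250 to 60 bases before the start site and in the direction of transcription, and capitals mark a GC box (GGGCGG) or a CCAAT box on either strand. The runs are, in order, chr13:13437352-13437542 on the plus strand, chr12:31265043-31265233 on the plus strand, chr9:108264018-108264208 on the minus strand and chr2:180225919-180226109 on the minus strand.
Nid1: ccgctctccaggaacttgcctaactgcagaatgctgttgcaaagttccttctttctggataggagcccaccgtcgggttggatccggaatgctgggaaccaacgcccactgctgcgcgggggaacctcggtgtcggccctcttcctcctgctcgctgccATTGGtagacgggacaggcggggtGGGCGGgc
Lamb1: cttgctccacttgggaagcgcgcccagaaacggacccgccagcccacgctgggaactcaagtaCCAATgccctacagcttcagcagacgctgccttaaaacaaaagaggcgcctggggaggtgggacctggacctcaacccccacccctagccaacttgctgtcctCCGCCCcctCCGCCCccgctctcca
Dag1: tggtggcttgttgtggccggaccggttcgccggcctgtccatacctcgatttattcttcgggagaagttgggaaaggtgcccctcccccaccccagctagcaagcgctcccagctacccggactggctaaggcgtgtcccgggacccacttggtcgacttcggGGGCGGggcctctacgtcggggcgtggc
Lama5: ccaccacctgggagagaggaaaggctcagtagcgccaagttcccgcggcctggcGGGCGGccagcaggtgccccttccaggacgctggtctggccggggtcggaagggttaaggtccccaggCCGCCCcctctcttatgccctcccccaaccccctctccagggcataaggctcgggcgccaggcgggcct

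All 4 stretches hold a GC box, which 23.1% of the 32851 promoter windows of this length hold. In these stretches Lamb1 and Lama5 have 2 GC boxes each, Nid1 and Dag1 have 1 each, and Nid1 and Lamb1 also have 1 CCAAT box each, a motif found in 26.9% of windows. A further Dag1 window, not shown, holds 3 GC boxes and 1 CCAAT box. Of the members not shown, Hspg2 has 5 GC boxes, Agrn 9 and 0 in its windows and Sparc 0, and none has a CCAAT box. The AP-1 motif TGANTCA, the TATA motif TATAAA and the ETS motif CCGGAAG, which were searched on both strands, were found in none of the 7 members with a window, against 5.26%, 8.78% and 3.66% of all windows. The GC content was 70.7% for Lama5, 66% for Dag1, 63.9% for Lamb1 and 62.8% for Nid1, beside a median of 51.3% over all windows. These matches describe the letters only, and Nid1 and Lamb1, at the ends of the range of PD03 changes, both hold each of the motifs that were found.

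Every member was expressed in every group. Levels between genes were compared as CPM per kilobase of exon, averaged over the 11 groups. Sparc, whose product binds collagen and calcium, was at 107 CPM per kilobase, and Dag1, which encodes both subunits of the laminin receptor dystroglycan, at 96.2. Hspg2 (perlecan) followed at 79.5, Nid2 at 74.3, Lamc1 (the gamma 1 chain) at 65.0 and Nid1 at 50.3. The alpha and beta chains were lower, with Lama5 at 29.3, Lamb1 at 19.1 and Lama1 at 13.7, and Agrn (agrin) stood between them at 22.3. The order in the middle depends on the length used. With the longest transcript as the length, 7 members kept their rank, and with the coding length 4 did, while Sparc, Dag1 and Lama1 were 1st, 2nd and 10th by all 3 lengths. The mean covers groups with and without PD03, and by single groups Sparc was 1st per kilobase of exon in the 4 groups with PD03 and 3rd or 4th in the 7 groups without it, where Dag1 was 1st in 6 and Hspg2 in 1.

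Across groups, the mean CPM of a member varied from 1.27 fold (Dag1) to 6.5 fold (Nid1) between its highest and lowest group. The group of stiff hydrogels in serum + LIF + PD03 was highest for 7 members, soft hydrogels in the same medium for Lama1 and Nid1, and stiff hydrogels in serum + PD03 for Nid2. These first places were close: for Hspg2, the 24 h stiff group at 1488 ± 64.5 CPM (SD, n = 3) was within the spread of the highest at 1493 ± 66.8 CPM, and for Nid1 the soft and stiff groups in serum + LIF + PD03 were at 731 ± 8.06 and 715 ± 10.6 CPM. The lowest group was serum without LIF or PD03 for 7 members, on stiff hydrogels for Lama1, Nid1, Sparc and Agrn and on soft hydrogels for Lamc1, Hspg2 and Dag1.

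**Figure D1:**
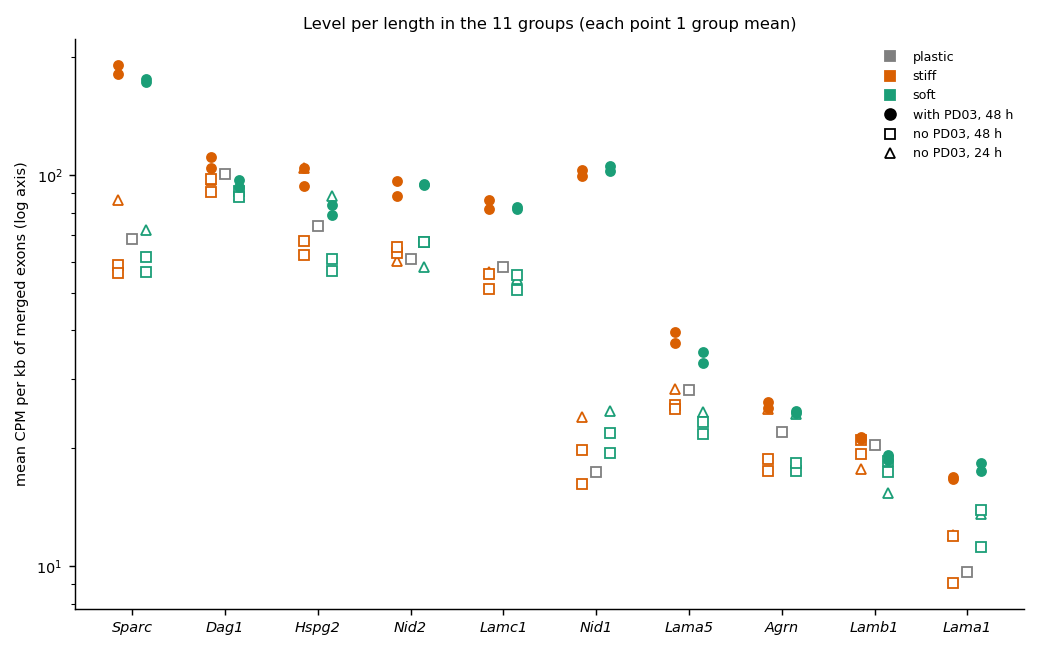
Mean level of each member in CPM per kilobase of exon, in each of the 11 groups. Sparc and Dag1 lie highest on average and Lama1 lowest. The points with PD03 are separate from those without it for Lama1, Lama5, Lamc1, Nid1, Nid2 and Sparc, most widely for Nid1 and Sparc.

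Every change of these genes with PD03 that passed the test was a rise. Of the 10 members, 8 rose with PD03 in all 4 comparisons, on both hydrogels and with or without LIF: Lama1, Lama5, Lamc1, Nid1, Nid2, Hspg2, Sparc and Agrn. The background was 21.5% of all genes tested rising in all 4. Nid1 rose by the most, 4.81 to 6.14 fold, and Sparc rose 2.84 to 3.24 fold. By comparison, the members called higher numbered 8 on soft without LIF (29% of all genes), 8 on soft with LIF (27.8%), 8 on stiff without LIF (28.4%) and 10 on stiff with LIF (28.3%), and none was called lower. The median log2 change of the members was 0.49, 0.50, 0.57 and 0.56 in that order, while the median of all genes lay between -0.01 and 0.01. A call is an adjusted p under 0.05 in edgeR's quasi-likelihood test, with the Benjamini-Hochberg adjustment over all 17702 genes. PD03 was not combined with 24 h or with plastic.

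Nid1 encodes the nidogen that joins the short arm of the laminin gamma 1 chain to collagen IV and perlecan. Without PD03, its libraries on soft hydrogels at 48 h were at 134, 136 and 135 CPM in serum and at 151, 153 and 152 CPM in serum + LIF. With PD03, the 6 soft libraries in serum ran from 689.9 to 729 CPM with a median of 703 CPM, and those in serum + LIF were at 724, 731 and 740 CPM. On stiff hydrogels, levels of 106, 116 and 115 CPM in serum and of 133, 146 and 133 CPM in serum + LIF compared with 692, 685 and 693 CPM in serum + PD03 and 720, 703 and 723 CPM in serum + LIF + PD03. Every library with PD03 was above every library without it by a wide margin. The log2 changes were 2.39 ± 0.0449 (SE) on soft without LIF, 2.27 ± 0.0482 on soft with LIF, 2.62 ± 0.0491 on stiff without LIF and 2.38 ± 0.0485 on stiff with LIF, and the highest of the 4 adjusted p-values was 2.29e-38. The ratio of Nid1 to its paralogue Nid2 in CPM averaged 0.332 to 0.573 in the groups without PD03 and 1.38 to 1.57 in those with it. Per kilobase of exon, Nid1 was at 16.2 to 24.9 CPM without PD03 and 99.4 to 105 CPM with it in the group means, and Nid2 at 58.2 to 67.5 CPM and 88.3 to 96.4 CPM, so that the order of the nidogens changed.

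Sparc was the other member with a change of more than 1 on the log2 scale. Its libraries without PD03 at 48 h held 221, 213 and 209 CPM in serum and 235, 248 and 219 CPM in serum + LIF on soft hydrogels, and 194, 228 and 217 CPM and 216, 226 and 226 CPM on stiff hydrogels. With PD03, the soft libraries in serum ran from 594 to 699 CPM with a median of 659 CPM. Those in serum + LIF + PD03 were at 680, 622 and 695 CPM on soft and 744, 736 and 686 CPM on stiff hydrogels, and the stiff libraries in serum + PD03 were at 702, 679 and 678 CPM. The groups with and without PD03 were far apart in each medium. Sparc rose by 1.61, 1.51, 1.69 and 1.70 on the log2 scale, in the order given above, with the highest adjusted p at 1.25e-28.

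**Figure D2:**
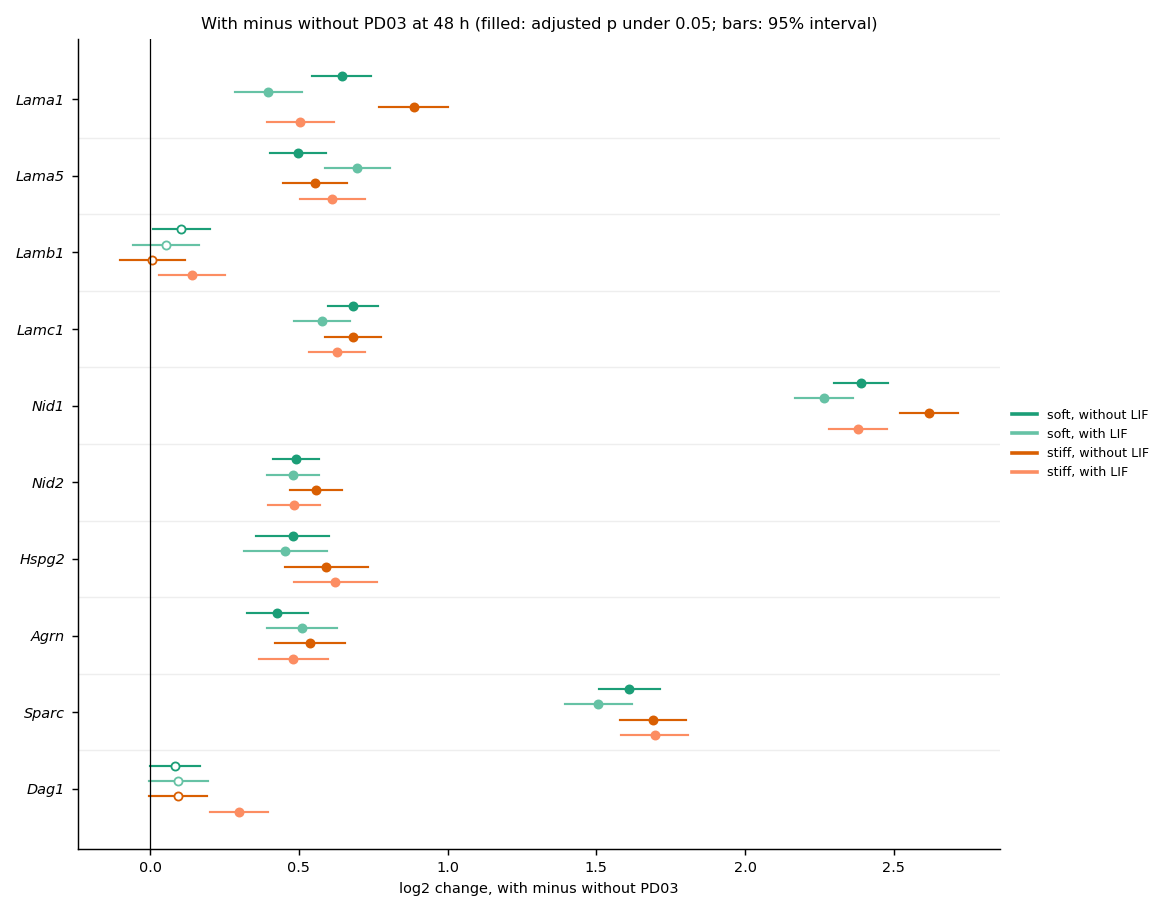
Log2 change of each member with PD03 against the same substrate and medium without it, at 48 h, with bars for the 95% interval of the fit. Nid1 lies above 2 and Sparc above 1 in all 4 comparisons, and Lamb1 and Dag1 lie nearest to 0.

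The laminin chains did not rise alike. Lamc1 rose by 0.58 to 0.68 on the log2 scale, Lama5 by 0.50 to 0.70 and Lama1 by 0.40 to 0.89, whereas Lamb1, the beta chain that pairs with both alpha chains, changed by 0.01 to 0.14. Lamc1 in serum on soft hydrogels was at 419, 422 and 421 CPM, and with PD03 it ran from 628 to 710 CPM with a median of 674 CPM. Lama5 in the same groups went from 263, 265 and 270.3 CPM to between 350.3 and 418 CPM, with a median of 371 CPM. Lamb1 was at 173, 179 and 165 CPM without PD03 and between 171 and 195 CPM with it, with a median of 186 CPM, so that its groups overlapped while those of the other chains did not. The Lamb1 interval on soft hydrogels reached from 0.01 to 0.20 without LIF (adjusted p = 0.0575) and on stiff hydrogels from -0.10 to 0.12 without LIF (adjusted p = 0.921). Lamb1 was called only on stiff hydrogels with LIF, where it went from 187, 191 and 198 CPM to 214, 206 and 215 CPM (log2 change 0.14 ± 0.0547, adjusted p = 0.0255). That call did not hold without stiff library 1 of serum + LIF, or without stiff library 1 or 3 of serum + LIF + PD03, with adjusted p up to 0.0962, or with upper-quartile scaling (0.152). On soft hydrogels without LIF, Lamb1 passed the threshold once PD03 library 4 or 5 or serum library 2 was left out, with adjusted p of 0.0223, 0.0490 and 0.0374, and in a fit on the compared groups alone (0.0255).

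Nid2, the proteoglycans and agrin rose by similar amounts. The range of log2 changes over the 4 comparisons was 0.48 to 0.56 for Nid2, 0.45 to 0.62 for Hspg2 and 0.43 to 0.54 for Agrn, whose product is best known for clustering acetylcholine receptors at the synapse and also binds laminin in other tissues. The highest adjusted p among these 3 genes was 1.85e-07, for Hspg2 on soft hydrogels with LIF. Nid2 shares 437 exonic bases with Rtraf on the opposite strand, which was at 259 to 342 CPM. The strand setting of the counting is not given in the sources used here. Reads in the shared bases could have been counted for either gene or for neither. Nid1 overlaps 143 exonic bases of the antisense transcript Gm48682, which was not in the count table.

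Dag1, the receptor, was the other member with little response. On soft hydrogels it was at 571, 537 and 566 CPM in serum and between 566 and 632 CPM in serum + PD03, with a median of 587 CPM, and these groups overlapped (log2 change 0.08, 95% interval -0.0013 to 0.17, adjusted p = 0.0872). On stiff hydrogels with LIF it went from 551, 577 and 595 CPM to 729, 699 and 692 CPM, without overlap, a log2 change of 0.30 ± 0.0489 (adjusted p = 7.26e-07). The changes on soft with LIF and on stiff without LIF were 0.10 and 0.09, with adjusted p of 0.0955 and 0.101. These passed the threshold without soft library 2 of serum + LIF (adjusted p = 0.0370) and without stiff library 2 of serum (adjusted p = 0.00432), and the change on soft without LIF passed in a fit on the compared groups alone (adjusted p = 0.0346). Whether PD03 acted differently with and without LIF was not tested.

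Markers of other cell types were read in the same libraries, because endoderm makes much laminin and SPARC. The 10 endoderm markers summed to 46.7 to 71.3 CPM without PD03 and to 84.1 to 142 CPM with it. The marker with the highest mean was Dab2, an endocytic adaptor, which had group means from 21 to 114 CPM and rose by 1.61 to 2.31 on the log2 scale with PD03, while Sox17 stayed at or under 1.35 CPM, Hnf4a at or under 1.67 CPM, and Afp and Ttr were at 0 in 25 and 32 of the 36 libraries. Of the 8 endoderm markers tested, 1 to 2 rose and 2 to 4 fell with PD03 in a comparison, Sox7 and Foxa2 falling in all 4. The 5 trophoblast markers summed to 54.2 to 85.9 CPM without PD03 and 183 to 253 CPM with it, mostly Gata3 and Tfap2c. Of these 5, 3 or 4 rose and 1 fell in a comparison, Eomes falling in all 4. The sums of the 7 fibroblast markers in the 48 h hydrogel groups averaged 25.5 to 49.9 CPM without PD03 and 34.5 to 87.7 CPM with it. Of the 6 fibroblast markers tested, 2 or 3 rose and 2 fell in a comparison. Col1a1 and Postn rose and Dcn and Thy1 fell in all 4, with Postn at or under 2.86 CPM and Dcn at or under 1.73 CPM. Of all genes, 27.8% to 29% rose and 26.6% to 28.5% fell in a comparison. The mESC markers also had higher sums with PD03, 2488 to 3017 CPM against 1657 to 2131 CPM without it. Of these 5 markers, 2 to 4 were called higher in a comparison and none lower. Nanog changed most, with a mean log2 change of 1.94 over the 4 comparisons. The mean was 0.43 for Esrrb and 0.04 to 0.11 for Pou5f1, Sox2 and Zfp42. The part of other cell types in the PD03 changes was not tested.

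Single members differed between soft and stiff hydrogels in opposite directions. For the 8 members that rose in all 4 PD03 comparisons, each of these differences was smaller in size than the least of the PD03 changes, whereas Lamb1 and Dag1 had differences of up to -0.27 and -0.20, beside PD03 changes of 0.01 to 0.14 and 0.08 to 0.30. Lama5, Lamb1 and Hspg2 were each lower on soft than on stiff hydrogels in at least 3 of the 5 media and times with 1 sign, which is 3 of 10 members beside 1.74% of all genes. Lama1 and Nid1 were on the higher side on soft hydrogels in all 5, with calls in 2 and in 1 of them. All differences lay between -0.32 and 0.31 on the log2 scale, at most 1.25 fold either way. Lamc1, Nid2 and Agrn were called in none of the 5 comparisons.

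At 24 h in serum + LIF, where all libraries share 1 SLX identifier, 4 members were called lower on soft hydrogels and none higher, beside 3.55% of all genes called. Sparc was at 286, 273 and 264 CPM on soft and 316, 340 and 323 CPM on stiff hydrogels, without overlap. Its log2 difference was -0.25 ± 0.0548 (adjusted p = 0.00236), and the call held whichever library was left out. Lama5 was at 282, 293 and 268 CPM on soft and 313, 322 and 333 CPM on stiff, a difference of -0.20 (adjusted p = 0.0211). Lamb1 was at 160, 151 and 145 CPM on soft and 167, 188 and 170 CPM on stiff, a difference of -0.21 (adjusted p = 0.0214). All 3 genes had every soft library below every stiff library. Hspg2 was likewise lower, with 1181, 1274 and 1330 CPM on soft and 1561, 1440 and 1461 CPM on stiff, a difference of -0.24 (adjusted p = 0.0384). Lama1 lay the other way, at 133, 133 and 129 CPM on soft and 117, 118 and 114 CPM on stiff, but the difference of 0.18 did not pass the threshold (adjusted p = 0.0755, 95% interval 0.06 to 0.29), while DESeq2 called it (0.0498). The Hspg2 call was not made with DESeq2 (0.113), with DESeq2 size factors in edgeR (0.0536) or with upper-quartile scaling (0.0718), nor the Lamb1 call in a fit on the compared groups alone (0.0527). The calls of Lama5, Lamb1 and Hspg2 depended on single libraries: with 1 library left out, Lama5 kept its call only without soft library 2 or stiff library 1, Lamb1 only without soft library 1 or stiff library 1 or 3, and Hspg2 only without soft library 3. The highest adjusted p among those fits were 0.137, 0.218 and 0.221.

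At 48 h in serum + LIF, Lama1 was called higher and Lama5 lower on soft hydrogels, beside 0.780% of all genes called. Lama1 was at 131, 136 and 136 CPM on soft and 111, 117 and 118 CPM on stiff (difference 0.22 ± 0.0573, adjusted p = 0.0475). Lama5 was at 262, 226 and 256 CPM on soft and 271, 300.3 and 312 CPM on stiff (difference -0.25 ± 0.0544, adjusted p = 0.0117). Neither pair of groups overlapped. With 1 library left out, the Lama1 call held only without soft library 1, with adjusted p up to 0.216 in the other fits, and it was not made with upper-quartile scaling (0.0707) or in a fit on the compared groups alone (0.0542). The Lama5 call was lost without soft library 2 (difference -0.17, adjusted p = 0.256) and without stiff library 2 or 3 (adjusted p = 0.0934 and 0.187).

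In serum without LIF at 48 h, Lama1 and Nid1 were called higher and Lamb1 lower on soft hydrogels, beside 4.85% of all genes called. Lama1 was at 112, 113 and 99.4 CPM on soft and 77.7, 93.6 and 91.5 CPM on stiff hydrogels, a difference of 0.31 ± 0.0578 (adjusted p = 0.00019). Nid1 was at 134, 136 and 135 CPM on soft and 106, 116 and 115 CPM on stiff, a difference of 0.27 ± 0.0482 (adjusted p = 0.000131). Lamb1 was at 173, 179 and 165 CPM on soft and 204, 225 and 196 CPM on stiff, a difference of -0.27 ± 0.0548 (adjusted p = 0.000686). In all 3 genes the soft and stiff libraries were apart, and the calls held without any 1 library. Dag1 was at 571, 537 and 566 CPM on soft and 581, 682 and 598 CPM on stiff, a difference of -0.15 with an adjusted p of 0.0586. It passed without stiff library 1 or 3 (0.0200 and 0.0462), and also with upper-quartile scaling (0.0378), with no filter on low counts (0.0375) and with DESeq2 (0.0348).

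With PD03 at 48 h, the called members were all lower on soft hydrogels, 4 in serum + PD03, beside 5.55% of all genes, and 3 in serum + LIF + PD03, beside 7.61%. Hspg2 had the largest differences, -0.25 ± 0.0594 (adjusted p = 0.00496) and -0.32 ± 0.0691 (adjusted p = 0.00112). It ran from 999 to 1342 CPM with a median of 1105 CPM in the 6 soft libraries of serum + PD03, against 1331, 1358 and 1337 CPM on stiff, and was at 1079, 1288 and 1223 CPM on soft against 1462, 1447 and 1570 CPM on stiff in serum + LIF + PD03. The groups overlapped by 1 library in serum + PD03 and were apart in serum + LIF + PD03. Dag1 was lower in both media, by -0.16 (adjusted p = 0.0112) and -0.20 (adjusted p = 0.00554), with 566 to 632 CPM on soft against 658, 681 and 645 CPM on stiff and with 610, 623 and 616 CPM against 729, 699 and 692 CPM. Lama5 was lower by -0.17 (adjusted p = 0.0171) and -0.16 (adjusted p = 0.0451), with 397, 413 and 396 CPM on soft and 439, 444 and 468 CPM on stiff in serum + LIF + PD03. Lamb1 was called only in serum + PD03, at -0.17 (adjusted p = 0.0156), where its soft libraries at 171 to 195 CPM lay below the stiff libraries at 208, 219 and 200.4 CPM.

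The Hspg2 calls with PD03 and the Dag1 call in serum + LIF + PD03 held without any 1 library, but not in most fits with the SLX identifier as a term. Over the 45 ways in which the identifier could be set, Hspg2 was called in 21 fits in each medium, with values reaching -0.07 (adjusted p = 0.696) in serum + PD03 and -0.05 (adjusted p = 0.883) in serum + LIF + PD03. Dag1 was called in 11 and 7 fits and reached -0.11 in both media, with an adjusted p of 0.6 in serum + LIF + PD03, and Lama5 was called in 12 and 5. In serum + PD03, Lama5 lost its call without stiff library 1 or 3 (adjusted p = 0.136 and 0.0717), Dag1 without stiff library 1 or 2 (0.0503 and 0.107), and Lamb1 without soft library 4 or stiff library 1 or 2 (0.0507, 0.0646 and 0.167). Lama5 in serum + LIF + PD03 lost its call whichever library was left out, with adjusted p from 0.0605 to 0.215, and with upper-quartile scaling (0.0535), while Lamb1 in that medium passed without soft library 3 (-0.20, adjusted p = 0.0317; -0.15 and 0.0906 with all libraries).

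Averaged over the 4 media at 48 h, 6 members were called, beside 16.4% of all genes. Lama1 (0.18 ± 0.0273) and Nid1 (0.12 ± 0.0227) were higher on soft hydrogels. Hspg2 (-0.21 ± 0.0335), Lama5 (-0.17 ± 0.0260), Lamb1 (-0.16 ± 0.0265) and Dag1 (-0.13 ± 0.0236) were lower, with no adjusted p above 6.85e-05 among the 6. Sparc, which was lower on soft at 24 h, averaged -0.03 at 48 h (adjusted p = 0.580), Lamc1 averaged -0.02 (95% interval -0.07 to 0.03), Agrn -0.04 (-0.09 to 0.02) and Nid2 0.05 (0.01 to 0.10, adjusted p = 0.0785, 0.0160 without stiff library 2 of serum and 0.0421 with DESeq2).

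The SLX identifier moved with substrate in all of these 48 h comparisons. The table names the group of each column and not its sample, so that the identifier could be set in 45 ways, and all 45 were fitted. With the identifier as a term, 0 to 3 of the 10 members were called in the average over media, and Hspg2 ranged from -0.45 to 0.04 there. Lama1 ranged from 0.07 to 0.28, Nid1 from 0.07 to 0.19, Lama5 from -0.30 to -0.03, Lamb1 from -0.28 to -0.06 and Dag1 from -0.20 to -0.04, all with the sign of the fit without the term. In serum + LIF, Lama5 was called in 4 of the 45 fits and Lama1 in 0. In serum, Nid1 was called in 31, Lama1 in 30 and Lamb1 in 18 of the 45 fits. Substrate and identifier cannot be told apart well at 48 h. At 24 h all libraries share 1 identifier, so that the term has no bearing on those calls.

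**Figure D3:**
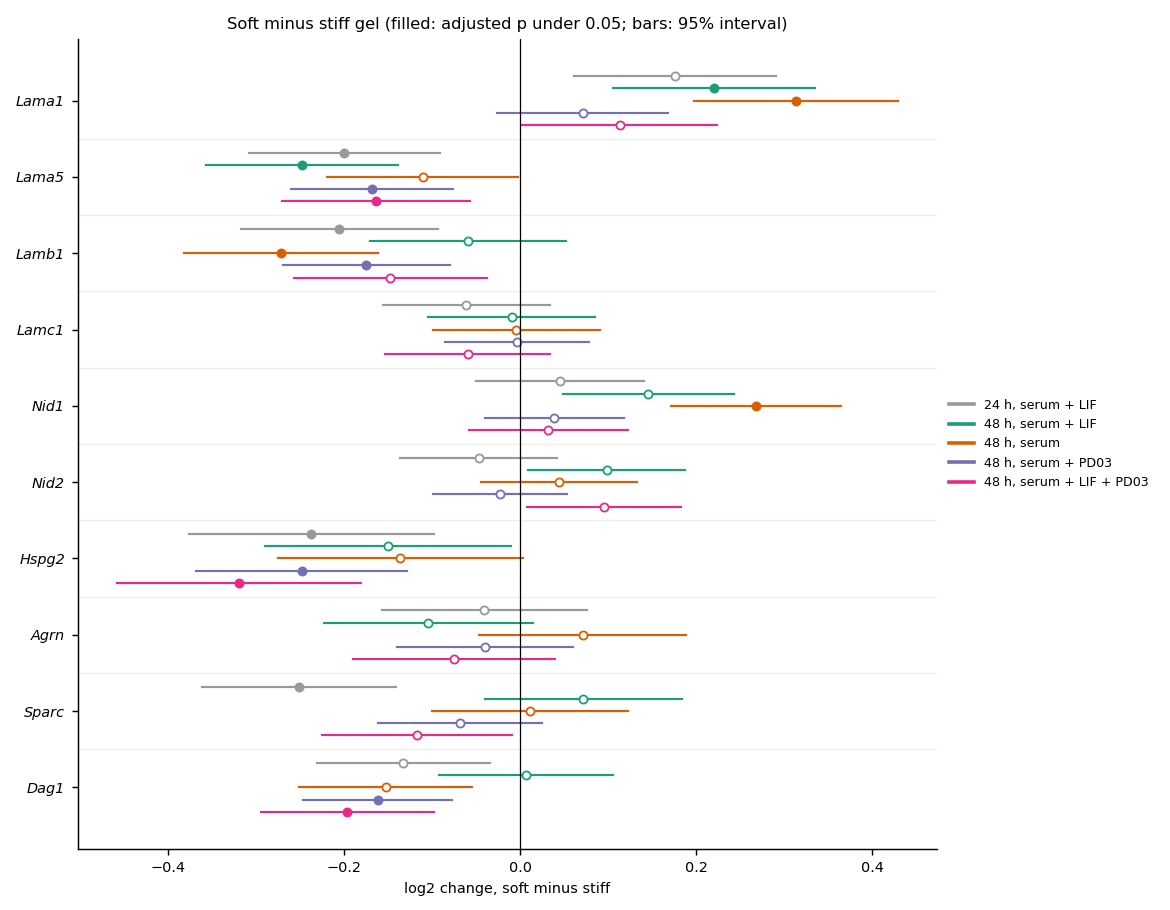
Log2 difference of each member between soft and stiff hydrogels in the 5 media and times, with bars for the 95% interval of the fit. Lama1 and Nid1 lie above 0 and Lama5, Lamb1, Lamc1 and Hspg2 below 0 in all 5, within -0.32 to 0.31.

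The alpha 1 and alpha 5 chains share their beta and gamma partners, and the ratio of their genes was taken within each library, where a factor shared by the whole library drops out. Lama1 in CPM was 0.361 ± 0.0164 (SD, n = 3) of Lama5 on stiff and 0.468 ± 0.0127 on soft hydrogels at 24 h. At 48 h it was 0.393 ± 0.0161 on stiff and 0.545 ± 0.0515 on soft in serum + LIF, and 0.306 ± 0.0373 and 0.407 ± 0.0342 in serum. With PD03 it was 0.382 ± 0.0138 and 0.451 ± 0.0219 (n = 6) in serum and 0.364 ± 0.00732 and 0.441 ± 0.00639 in serum + LIF. Every soft library was above every stiff library in each of the 5 media and times, and plastic had the lowest mean, 0.292 ± 0.0239, within the range of the stiff serum libraries (0.264 to 0.337). The ratio describes the library values behind the calls given above and is not a ratio of molecules, since the genes differ in length. At 48 h the substrate nearly coincided with the SLX identifier. A difference between identifiers that the genes do not share would stay in the ratio, which was not fitted with the identifier as a term. Only at 24 h do all soft and stiff libraries share 1 identifier.

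**Figure D4:**
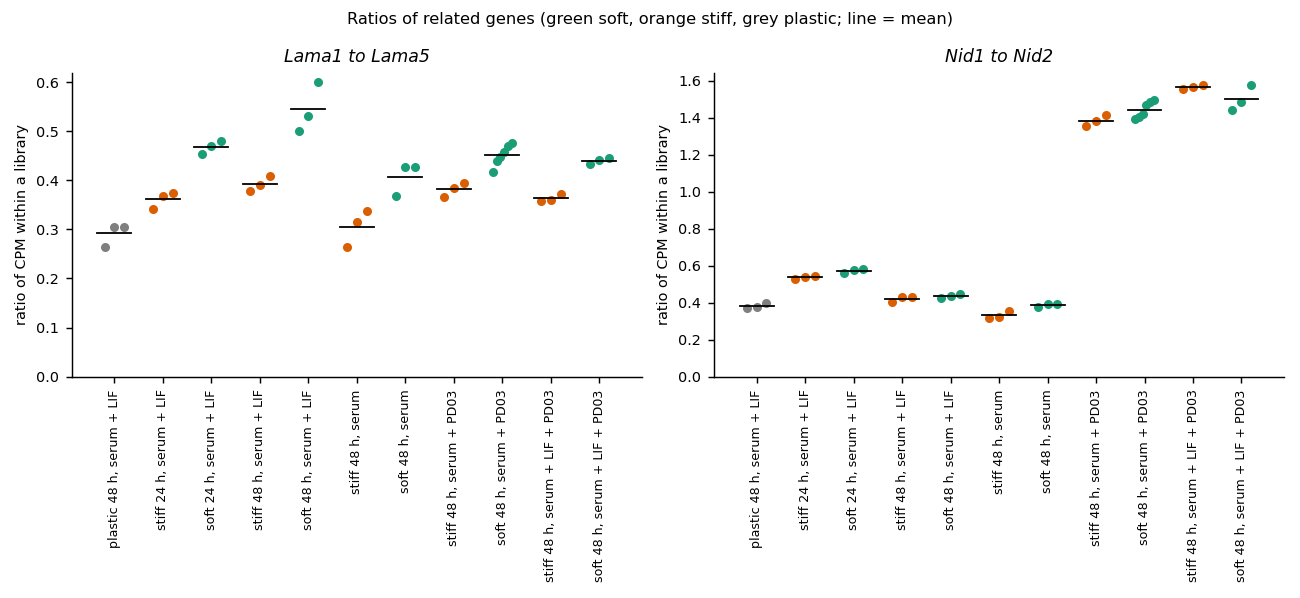
Ratio of Lama1 to Lama5 and of Nid1 to Nid2 in CPM in each library, by group. The Lama1 to Lama5 ratio is higher on soft than on stiff hydrogels in every medium and time, and the Nid1 to Nid2 ratio is above 1 only in the 4 groups with PD03.

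Plastic was compared with both hydrogels at 48 h in serum + LIF, and the stiff and the soft contrast share the plastic libraries. On soft hydrogels, 3 members were higher and 4 lower than on plastic, beside 11.8% of all genes called. Lama1 was at 97.7, 87 and 95.8 CPM on plastic and at 131, 136 and 136 CPM on soft hydrogels, well apart, with a difference of 0.52 ± 0.0579 (adjusted p = 9.8e-10). Nid1 was at 132, 112 and 117 CPM on plastic and 151, 153 and 152 CPM on soft, a difference of 0.33 (adjusted p = 8.39e-07), and Nid2 differed by 0.15 (adjusted p = 0.0192). Lama5 was lower by -0.37 (adjusted p = 1.04e-06), from 319, 329 and 313 CPM on plastic to 262, 226 and 256 CPM on soft. Agrn was lower by -0.33 (adjusted p = 4.23e-05), from 206, 202 and 205 CPM to 174, 145 and 168 CPM. Hspg2 was lower by -0.28 (adjusted p = 0.00351) and Dag1 by -0.15 (adjusted p = 0.0369). None of these 7 genes had overlapping groups, but the smaller calls depended on single libraries. Without plastic library 2, Hspg2 had an adjusted p of 0.0830. Nid2 lost its call without plastic library 2 or 3 or soft library 2 (up to 0.102), Dag1 kept its call, with 1 library left out, only without soft library 2, and Sparc (-0.15, adjusted p = 0.0724) was called without that library (0.0471) and with upper-quartile scaling (0.0449). Dag1 was also not called with DESeq2 size factors, with no filter, with DESeq2 or in a fit on the compared groups alone (adjusted p from 0.0519 to 0.206), nor Nid2 in the last of these (0.115).

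On stiff hydrogels, 2 members were higher and 3 lower than on plastic, beside 5.54% of all genes called. Lama1 at 111, 117 and 118 CPM was above plastic by 0.30 ± 0.0582 (adjusted p = 0.000269), and Nid1 at 133, 146 and 133 CPM by 0.19 (adjusted p = 0.0101). Agrn at 169, 176 and 179 CPM was below it by -0.23 (adjusted p = 0.0109), Sparc at 216, 226 and 226 CPM, against 254, 263 and 261 CPM on plastic, by -0.22 (adjusted p = 0.00800), and Dag1 by -0.15 (adjusted p = 0.0497). All soft and stiff libraries lay above those of plastic for Lama1 and Nid1 and below them for Agrn and Dag1, the genes called on both hydrogels. They also lay below plastic for Lama5, Lamc1 and Sparc, which were not called on both. Agrn and Sparc lost their calls without stiff library 1 (adjusted p = 0.0772 and 0.0620), Nid1 without plastic library 2 or 3 or stiff library 2 (0.210, 0.105 and 0.200), and Dag1 kept its call, with 1 library left out, only without stiff library 3, and lost it with DESeq2 size factors, upper-quartile scaling or no filter (0.0679, 0.056 and 0.13). With the SLX identifier as a term, 1 to 4 members were called on soft against plastic and 0 to 2 on stiff against plastic, and Lama1 was called in 40 and in 30 of the 45 fits.

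The sum of the 7 fibroblast markers was 69.5 to 79.5 CPM in the plastic libraries, all from serum + LIF at 48 h. In that medium and time, the stiff libraries had sums of 32.7 to 39.5 CPM and the soft libraries 24.5 to 30.1 CPM. Over all media and times, the range was 32.7 to 91.3 CPM for stiff and 22.2 to 41.5 CPM for soft hydrogels. The highest stiff value came from serum + LIF + PD03. The sum was mainly Col1a1, which was lower on soft than on stiff hydrogels in all 5 media and times, by -0.70 to -1.43 on the log2 scale, while Lum was at 0 in 24 of 36 libraries and Dcn at or under 1.73 CPM. Of the 6 fibroblast markers tested, 1 or 2 were lower on soft in a comparison and none higher, Col1a2 being lower in 3. Of the 5 trophoblast markers, 0 to 2 were lower and 0 or 1 higher, Gata3 being lower in 4. Of all genes, 0.333% to 4.82% were lower and 0.446% to 2.8% higher. Of the 8 endoderm markers tested, Dab2 alone was called between soft and stiff hydrogels. It was lower on soft at 24 h (-0.39) and in both media with PD03 (-0.36 and -0.44). The list medians there were -0.34, -0.13 and 0.14, and 2.52%, 3.42% and 4.82% of all genes were lower. Against plastic, 3 of the 8 were higher and 0 lower on soft hydrogels (median 0.83), beside 5.29% and 6.47% of all genes. On stiff hydrogels 4 were higher and 1 lower (median 0.71), beside 1.95% and 3.59%. The part of such cells in the member differences was not tested.

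Lama1 was higher with LIF in media without PD03. On stiff hydrogels Lama1 went from 77.7, 93.6 and 91.5 CPM in serum to 111, 117 and 118 CPM in serum + LIF, a log2 change of 0.40 ± 0.0582 (adjusted p = 9.13e-06), and Nid1 from 106, 116 and 115 CPM to 133, 146 and 133 CPM, a change of 0.29 ± 0.0486 (adjusted p = 0.000137). These were the 2 members called, beside 1.41% of all genes. On soft hydrogels Lama1 was the only member called, beside 0.0169% of all genes, which is 3 genes. It went from 112, 113 and 99.4 CPM to 131, 136 and 136 CPM, a change of 0.31 ± 0.0568 (adjusted p = 0.0142). With LIF and without it, the Lama1 libraries were apart on both hydrogels. The soft call was lost without serum library 1 or 3 or without serum + LIF library 1 or 2, with adjusted p from 0.0523 to 0.250, and in a fit on the compared groups alone (0.0717).

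With PD03 present, edgeR called no member for LIF on soft (0.107% of all genes called) or on stiff hydrogels (0.514%), and neither did DESeq2. At an unadjusted p under 0.05 there was 1 member on soft (Lama5, 0.10) and 2 on stiff hydrogels (Nid2, -0.13, and Hspg2, 0.15). A fit on the compared stiff groups alone called both, with adjusted p of 0.0124 and 0.00131. Lama1 was at 172, 184 and 175 CPM on soft with LIF and PD03 and between 158 and 180 CPM with PD03 alone, a log2 change of 0.07 with a 95% interval of -0.03 to 0.16.

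Between 24 h and 48 h in serum + LIF, the proteoglycans went down on both hydrogels. Hspg2 went from 1181, 1274 and 1330 CPM to 935, 832 and 852 CPM on soft hydrogels and from 1561, 1440 and 1461 CPM to 894, 996 and 1018 CPM on stiff hydrogels. It fell by 0.53 and 0.62 on the log2 scale, with adjusted p of 6.32e-08 and 1.05e-09. Agrn went from 228, 221 and 233 CPM to 174, 145 and 168 CPM on soft and from 224, 236 and 243 CPM to 169, 176 and 179 CPM on stiff hydrogels and fell by 0.49 and 0.42. No 48 h library of these genes reached any 24 h library on the same substrate. Sparc changed by -0.23 on soft and -0.55 on stiff hydrogels, and Nid1 by -0.18 and -0.28, all past the threshold. In all, 2 members rose and 5 fell on soft hydrogels, beside 24.4% of all genes called, and 4 fell on stiff hydrogels, beside 25.6%. Those that rose on soft were Lamb1 (0.28, adjusted p = 0.000141), from 160, 151 and 145 CPM to 182, 192 and 179 CPM, and Nid2 (0.21, adjusted p = 0.000225). Lama5 fell on soft by 0.18 (adjusted p = 0.0112), a call that was lost without soft library 2 of 24 h (0.0783) or of 48 h (0.185). On stiff hydrogels Lama5 (-0.13) and Lamb1 (0.13) missed the threshold and passed it without stiff 48 h library 3 and without stiff 24 h library 2, with adjusted p of 0.0279 and 0.0188, and Lama5 also passed in a fit on the compared groups alone (0.0434). All 24 h libraries share 1 SLX identifier and the soft 48 h libraries another, and with the identifier as a term 0 to 3 members were called on soft hydrogels and 4 to 5 on stiff hydrogels.

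Whether the response of the members to PD03, LIF or time differed between soft and stiff hydrogels was tested by interaction terms, and edgeR called no member. For PD03 the interaction was called for 0.797% of all genes without LIF and for 1.07% with LIF. The member values ran from -0.24 (Lama1) to 0.10 (Lamb1) without LIF, and from -0.20 (Dag1) to 0.08 (Lama5) with LIF, and 95% intervals of all members lay within -0.39 to 0.24 and -0.37 to 0.24. The smallest adjusted p was 0.0604 for Nid1 without LIF, at -0.23, and 2 members had an unadjusted p under 0.05 in each. Nid1 was called with upper-quartile scaling (-0.24, adjusted p = 0.0411), with DESeq2 (-0.22, adjusted p = 0.0204) and, at an adjusted p that rounds to 0.05, without soft PD03 library 3, and Dag1 with LIF was called without soft library 3 of serum + LIF (0.0418). For LIF, 0.0847% of all genes were called without PD03 and 0.00565% with it, with 3 and 1 members at an unadjusted p under 0.05 and member values between -0.18 and 0.21. For time, 0.254% of all genes were called, and Sparc came nearest (0.32, adjusted p = 0.0525, 95% interval up to 0.48) beside the -0.23 on soft and -0.55 on stiff hydrogels given above. Sparc was called without a filter on low counts (0.35, adjusted p = 0.00207), with DESeq2 (0.32, adjusted p = 0.0352), and without soft 24 h library 1 (0.0474), soft 48 h library 3 (0.0138) or stiff 24 h library 1 (0.0498).

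**Figure D5:**
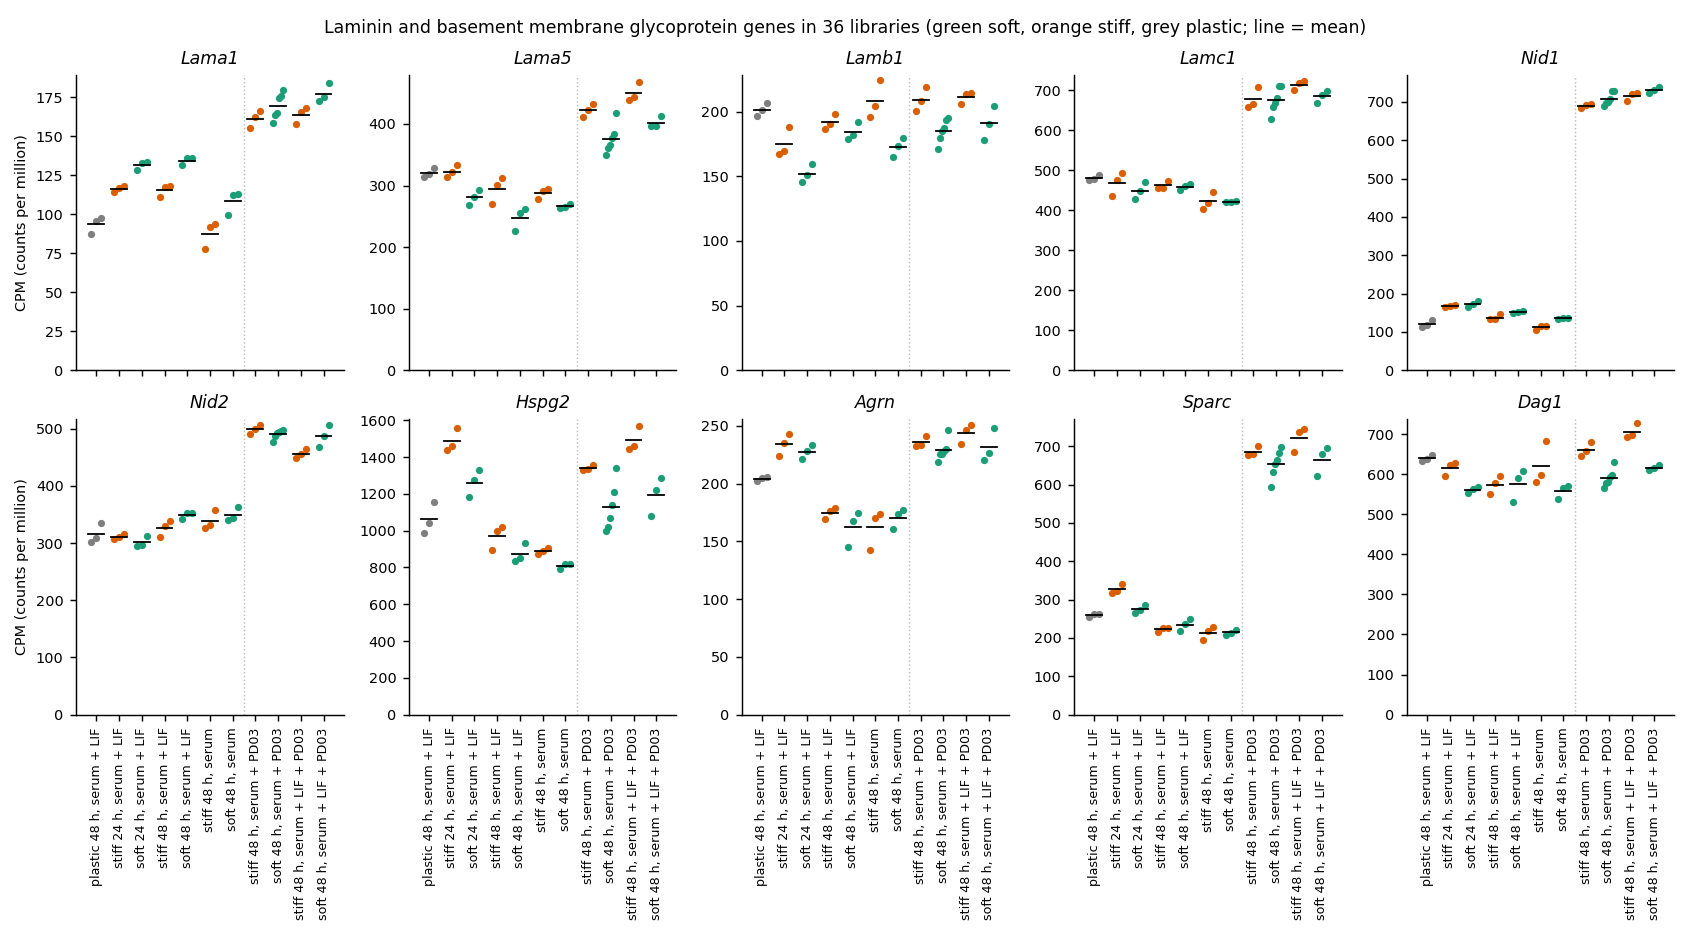
CPM of each member in all 36 libraries by group, with the group mean. Every library with PD03 is above every library without it for Lama1, Lama5, Lamc1, Nid1, Nid2 and Sparc, most widely for Nid1 and Sparc. Hspg2 and Agrn are higher at 24 h than at 48 h in serum + LIF.

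Other genes of the pathway were read from lists made by function, with earlier results of these data known. Of the 7 other laminin chains, 5 were tested. With PD03, 3 of the 5 chains rose on soft and 4 on stiff hydrogels and none fell, beside 27.8% to 29% of all genes that rose and 26.6% to 28.5% that fell in a comparison. Lama4, an alpha chain of vessel walls, rose by 1.71 to 2 on the log2 scale but stayed at 0.924 to 6.88 CPM, and Lamb2 rose by 1.17 to 1.48. Lamb2, at 16.6 to 55.6 CPM, is the paralogue of Lamb1, which changed by at most 0.14 in the same comparisons.

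Of 15 other basement membrane glycoproteins, 14 were tested. With PD03, 5 to 7 of the 14 rose and 2 to 5 fell in each comparison. Of all genes, 27.8% to 29% rose and 26.6% to 28.5% fell. Tinagl1, a secreted protein that binds integrins and laminin, rose by 3.23 to 3.93 on the log2 scale, and Sparcl1, a relative of Sparc, was called higher in all 4 but lay at or under 1.67 CPM. Frem2 fell by 1.84 to 2.31 and the netrin Ntn1 by 1.89 to 2.23. On soft against stiff hydrogels, Tinagl1 was lower in 4 of the 5 comparisons (-0.57 to -0.89), and Npnt (nephronectin, an integrin ligand; -0.25 to -0.51) and Fras1 (-0.85 to -1.64) were lower in 3 each. Over the list, 0 or 1 gene was called higher and 0 to 3 lower on soft hydrogels in a comparison. Of all genes, 0.446% to 2.8% were higher and 0.333% to 4.82% lower.

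Of 11 laminin receptors and dystroglycan partners, 10 were tested, and 1 to 5 were lower on soft hydrogels in each comparison and 0 or 1 higher, beside 0.333% to 4.82% of all genes lower and 0.446% to 2.8% higher. Itga3, an integrin alpha chain for laminin, was lower on soft in all 5, by -0.25 to -0.65. Itgb1, the partner of most laminin-binding alpha chains, was lower in 4 (-0.25 to -0.45), Sgce (epsilon-sarcoglycan) in 4 (-0.48 to -0.86) and Itgb4 in 3 (-0.33 to -0.45). With PD03, 4 or 5 of the 10 rose and 2 to 4 fell, beside the shares of all genes given for PD03 above. Itga7 rose by 0.99 to 1.25 at 0.627 to 3.34 CPM and Sgce by 0.53 to 0.99, while Bcam, which binds the laminin alpha 5 chain, fell by 1.03 to 1.17 and Itga3 by 0.38 to 0.76. The 13 tested enzymes that build the laminin-binding glycan of dystroglycan had no call between soft and stiff hydrogels in any of the 5 comparisons. With PD03, 2 or 3 of the 13 rose and 2 to 6 fell, beside the same shares of all genes: Pomgnt1 rose in all 4 by 0.44 to 0.55, and B3galnt2 and Pomt1 fell in all 4 by 0.47 to 0.65 and 0.23 to 0.58.

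Members that moved alike across groups were not always alike within a medium and time. Over the 11 group means of log2 CPM, Nid1 and Sparc had a Pearson r of 0.984 and Lamc1 and Sparc of 0.981, points that share the PD03 split and the library scaling. Over the 33 hydrogel libraries centred by medium and time, r was 0.841 for Lama5 and Hspg2 and 0.832 for Lama1 and Nid1, -0.544 for Lama1 and Lama5 and 0.0015 for Nid1 and Sparc. Such an r mixes the difference between soft and stiff hydrogels with the spread between libraries of a group. At 48 h that difference nearly coincided with the SLX identifier. The genes whose pattern over the 11 group means was most like the mean of Lama1, Lamb1 and Lamc1 were Dkk1 (r = 0.987), Cnst (0.983), Vgll1 (0.983), Sel1l (0.983) and Timd2 (0.980), and Nid2 and Nid1, with r of 0.928 and 0.927, were 895th and 921st. The chains in that mean were not all alike themselves. Over the 11 group means, r was 0.0239 for Lama1 and Lamb1, 0.448 for Lamb1 and Lamc1 and 0.856 for Lama1 and Lamc1. These values describe 11 points of which 4 have PD03.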

How the data were processed

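RNA from 36 samples of mESCs in 11 groups was extracted with an RNeasy kit and a DNase step, and the labels name a NuGen kit for the libraries. The authors deposited whole-number counts of reads for each Ensembl gene, and these had not been normalised. The submitters' processing notes name STAR 2.5.2a, HTSeq, DESeq and the build mm10, and the strand setting and the treatment of reads with several matches are not given in the sources used here. Columns of the deposited count table carry the group but no replicate number, so library numbers are only names. There was 1 count table, and all of its columns belong to these samples.

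The deposited table was fitted with edgeR 4.0.16 under R 4.3.3. The function filterByExpr kept 17702 genes with 99.9% of the counts, libraries were scaled by TMM, and all libraries entered a quasi-likelihood fit that had a coefficient for each group, no covariate and 25 residual degrees of freedom. Contrasts were tested with glmQLFTest, and p-values were adjusted by Benjamini-Hochberg over all genes tested with a threshold of 0.05. CPM are counts scaled by library total and TMM factor, and log2 CPM used a prior count of 2. Over 45 pairs of replicate libraries, the chi-square per degree of freedom was 2.13 to 11.7 for genes with at least 20 summed counts, and no pair was treated as 1 library.

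Coordinates and lengths came from GENCODE M21 (49412 identifiers matched), and promoters from RefSeq (GRCm38.p6). The members and lists were chosen with earlier results of these data known. All members are named. From the other lists, genes are named that were called with 1 sign in 3 or more of the 5 soft against stiff comparisons, and for PD03, among those called in all 4 comparisons, the 2 that rose most and the 2 that fell most on average. Some genes that meet this rule are not reported here. From the ranking by likeness, the 5 genes with the highest r are named, and marker genes may be named with their levels.

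Alternatives were DESeq2 1.42.0, upper-quartile scaling, no filter, fits on the compared groups alone, other gene lengths, each library left out in turn, and the SLX identifier as a term in 45 assignments.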

Additional observations from a re-analysis of the deposited data

How the results depend on the processing

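Over the single-gene values and all alternatives, 3487 of the settings kept the side of the threshold, 118 lost the call and 40 gained it. A further 5 changed direction where the main or the alternative fit made a call. A change of direction between fits that both made no call is counted among the 3487. The 5 came from fits with the SLX identifier as a term, at their highest value: Dag1 soft against plastic (0.013), Hspg2 soft against plastic (0.096), Hspg2 soft against stiff averaged over the media (0.043), and Lama5 and Nid1 between 24 h and 48 h on soft hydrogels (0.091 and 0.0056). The following values are numbers of the 10 members called. With the SLX term the lowest was 0 for soft against stiff in serum + LIF, serum, serum + PD03 and serum + LIF + PD03 at 48 h. It was 0 to 3 for the average over the media, 1 to 4 for soft against plastic, 0 to 2 for stiff against plastic, 0 to 3 for time on soft hydrogels, and up to 1 for the interactions of stiffness with PD03 without LIF and with time. The groups fitted alone gave 1 for soft against stiff at 48 h in serum + LIF, 0 for LIF on soft without PD03 and 2 for LIF on stiff with PD03. Upper-quartile scaling gave 1 for soft against stiff at 48 h in serum + LIF and 1 for the interaction with PD03 without LIF. DESeq2 gave 1 for that interaction and 1 for the interaction with time, as did no filter for the latter. By length, 7 members kept their rank with the longest transcript and 4 with the coding length. The cause of these changes was not tested.

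With 1 library left out, the number of members called was 1 to 3 (4 with all libraries) for soft against stiff at 24 h, 0 to 2 in serum + LIF, 3 to 4 in serum, 1 to 4 in serum + PD03 and 2 to 3 in serum + LIF + PD03 at 48 h, and 6 to 7 for the average over the media. It was 4 to 7 for soft and 2 to 5 for stiff against plastic, 0 to 1 for LIF on soft without PD03, 8 to 9 for PD03 on soft without and with LIF and on stiff without LIF, and 9 to 10 on stiff with LIF. For time it was 6 to 7 on soft and 4 to 5 on stiff hydrogels, and for the interactions with PD03 and with time it was 0 to 1. The 8 members that rose with PD03 kept their calls in each of the 4 comparisons and 45 fits with the SLX term. No paired analysis was possible because the columns of the table carry no replicate number. At 3 libraries a group, differences under about 0.2 on the log2 scale are near the limit of what was called.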
